A study of Mus musculus with 8 samples.

Results

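The 35 genes described here encode liver-secreted proteins of 2 plasma cascades, 19 of coagulation and fibrinolysis and 16 of complement, with the fibrinogen genes left out. They were taken by name from a fixed list, and all 35 were found among 21887 protein-coding genes of the RefSeq mouse annotation. The rule uses no measured value, but the list was chosen with earlier results of these data known. Comparisons of the set with all genes are thus descriptions. Coagulation is a chain of serine proteases, made as inactive zymogens, that ends in thrombin (F2) and a fibrin clot, and it is held in check by antithrombin (Serpinc1) and protein C (Proc) and undone by plasmin (Plg). Complement is a second protease chain in plasma, started among others by mannose-binding lectins (Mbl1, Mbl2) and their proteases (Masp1, Masp2), that splits C3 and ends in a pore built from C5 (named Hc in the mouse) to C9. Hepatocytes make most of both sets, and in the liver REV-ERBα, the clock repressor encoded by Nr1d1 and abundant late in the light phase and scarce late in the dark phase, is a nuclear receptor that binds DNA near many hepatocyte genes.

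The data are in-situ ChIA-PET maps of whole mouse liver nuclei, a method that ligates neighbouring chromatin inside fixed nuclei, pulls down a tagged protein and counts the paired-end tags (PETs) that join 2 genomic intervals, the anchors of a loop. All 6 libraries used were pulled down with anti-HA beads that bind the 3HA tag of REV-ERBα. Knock-in mice of genotype REV-ERBa3HA/3HA, which carried the tag in both copies of the gene and received no virus, gave 1 library each at ZT22 and ZT10 (zeitgeber time, in hours after lights on). Mice of genotype REV-ERBaf/fREV-ERBbf/f, floxed in both REV-ERB genes, all received AAV8-TBG-Cre and were taken at ZT10. In that floxed background 2 libraries carried AAV8-TBG-3HA-REV-ERBa-WT, called WT below, and 2 carried AAV8-TBG-3HA-REV-ERBa-delhIDR, called dhIDR, a form that the label names as deleted for the hIDR. The TBG promoter drives expression in hepatocytes, so other liver cells would keep the floxed genes. The labels used here give neither animal ages nor the origin of the replicates, so the spread behind p-values is that between these libraries and may be technical. In whole liver, fewer cells of a type and fewer contacts per cell cannot be told apart. Of the 8 samples of the series, 2 used an antibody to CTCF and were not analysed here.

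Listed PETs on nuclear chromosomes ran from 104161 to 320427 per library and loops from 31033 to 58102. Mitochondrial PETs, left out of all sums, were 49244 in the ZT10 knock-in file, 7300 at ZT22 and 151 to 1207 in the AAV files. Every file lists only loops of at least 3 PETs, so an unlisted loop had 0 to 2 PETs and sequencing depth cannot be read from these sums. The ZT10 knock-in library stood apart from the other 5. Its loops had a median span of 38.8 kb, against 523 to 1071 kb in the others, and its anchors a median width of 1067 bp, against 601 to 626 bp. It held 265 PETs at Nr1d1 itself, against 0 to 5 in each of the others. Summed PETs at 10 hepatocyte marker genes were 991 in the ZT10 knock-in library, where only Serpina1a was unlisted, 68 at ZT22, 26 and 56 in the WT libraries, and 62 and 26 in the dhIDR libraries. Over 6 Kupffer cell markers the sum was 3 PETs at ZT10, all at Timd4, and 30 at ZT22. Over 6 endothelial markers it was 116 and 31, over 6 stellate markers 23 and 74, and over 5 cholangiocyte markers 32, all at Sox9, and 18. Defining Kupffer markers Clec4f and Vsig4 had no listed loop at ZT10. In the AAV libraries, WT replicates first and then dhIDR replicates, Kupffer markers held 12, 63, 50 and 18 PETs. Endothelial markers held 37, 83, 90 and 38, stellate markers 22, 97, 116 and 81, and cholangiocyte markers 13, 9, 0 and 32. Hepatocyte marker sums lay below the endothelial ones in each AAV library, with no scaling for gene length. The part of cell makeup in the differences between libraries was not tested.

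A loop was counted for a gene when an anchor lay in its annotated body or within 5 kb of it, and each loop was counted once for the set. The 35 genes together held 304 loops and 1923 PETs in the ZT10 knock-in library and 54 loops and 179 PETs at ZT22. The WT libraries held 130 and 198 PETs, and the dhIDR libraries 162 and 174. Per 10000 listed PETs this was 60.0 at ZT10 in the knock-in (95% Poisson interval 57.4 to 62.8) and 13.5 at ZT22 (11.6 to 15.6). The WT replicates had 12.5 and 9.71, and the dhIDR replicates 9.08 and 10.8. The ZT10 knock-in library was thus the only high library of the 6, and the 4 AAV libraries, also taken at ZT10, lay below the ZT22 knock-in library. Loops were listed at 34 of 35 genes (97.1%) at ZT10 in the knock-in, at 29 (82.9%) at ZT22, and at 21 to 27 (60.0% to 77.1%) in each AAV library. Over all protein-coding genes the shares were 52.1%, 58.5% and 49.7% to 63.5%. The Poisson intervals cover counting error only, and only as far as PETs are independent. PETs enter in loops of at least 3, and PCR copies of a molecule cannot be told from independent molecules here. The intervals may thus be too narrow, and those of the folds below treat PETs in the same way.

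**Figure D1:**
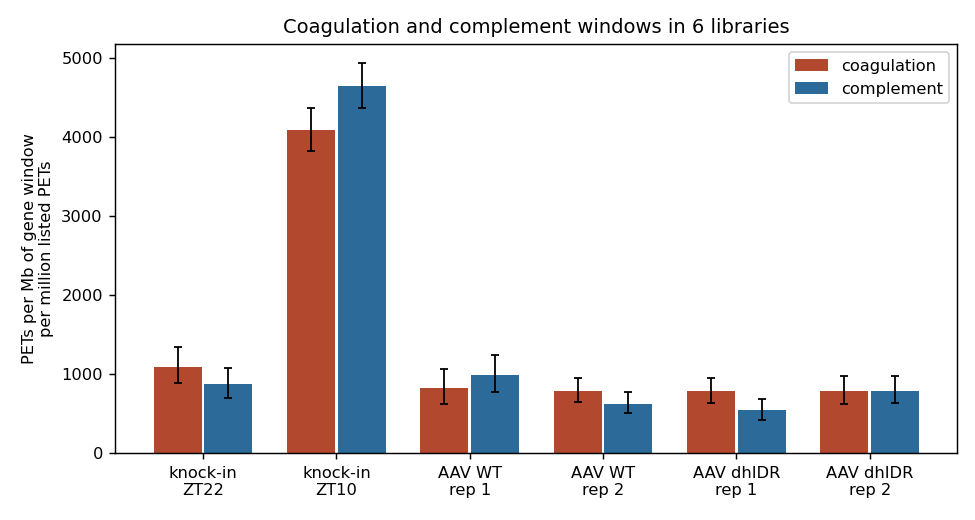
PETs of the coagulation (red) and complement (blue) genes in each of the 6 libraries, per Mb of their gene windows and per 1000000 listed PETs; bars are single libraries and error bars are 95% Poisson intervals. The ZT10 knock-in bars, at 4085 for coagulation and 4641 for complement, stand above those of all other libraries, which lie between 547 and 1098.

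Coagulation and complement genes shared no loop in any library, so their sums are separate counts. At ZT10 in the knock-in the 19 coagulation genes held 871 PETs in 149 loops and the 16 complement genes 1052 PETs in 155 loops. The ratio of coagulation to complement PETs was 0.828 (95% interval 0.756 to 0.907), and 0.880 (0.804 to 0.964) per kb of window. That order rested on 1 gene: without Mbl1 the ratio turned to 1.28 (1.16 to 1.42). The median gene of each list had nearly the same density, 0.833 PETs per kb for coagulation and 0.848 for complement. At ZT22 the counts were 97 and 82 PETs, a ratio of 1.18 (0.872 to 1.61), whose interval includes equality. In WT the ratios were 0.781 and 1.18, and in dhIDR 1.35 and 0.933, so the order of the lists changed between replicates of each construct.

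The knock-in libraries address how contacts of the tagged receptor differ between its low and high phase. With 1 library per time there is no replicate check and no test of the times. The share of listed PETs at the 35 genes was 4.45-fold higher at ZT10 than at ZT22 (95% interval 3.82 to 5.22). It was 3.72-fold higher (3.01 to 4.64) for coagulation and 5.31-fold higher (4.24 to 6.74) for complement, and the difference between these folds was not tested. Over all protein-coding windows the same fold was 1.15. When the libraries were scaled by the median ratio over genes with at least 30 PETs, in place of listed PETs, the fold for the 35 genes was 1.62. Without Mbl1 it was 3.97, with a minimum anchor width of 700 bp 3.04, and with spans up to 2 Mb 4.18.

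Of the 35 genes, 30 (85.7%) took a larger share of listed PETs at ZT10, and 5 (F2, F9, F13b, Pros1 and C6) at ZT22. Over all 21887 genes 27.3% took a larger share at ZT10 and 45.3% at ZT22, and the rest had no listed loop. Listed loops at ZT10 and not at ZT22 were found at 6 of the 35 (F11, F12, Serpinf2, Hrg, Masp2 and C4b), and F13b had the opposite pattern. Over all 21887 genes, 3099 were listed at ZT10 only and 4498 at ZT22 only, so the 6 are a description. A ratio of at least 4-fold was counted among genes whose PETs summed to 30 or more over these libraries, with counts under 3 set to 3. By that rule 15 of 20 such genes of the set were past 4-fold at ZT10, with 41.9% of all 3721 genes, and 0 were past 4-fold at ZT22, with 16.3% of all genes. Neighbours that share loops, F7 with F10 and F11 with Klkb1, were counted as separate genes among the 15. The median log2 ratio was 2.65 for the 12 coagulation genes, 2.47 for the 8 complement genes and 1.46 for all genes. With loops of at least 4 PETs the count was 6 of 14 (42.9%), against 31.7% of all genes. With anchors at least 700 bp wide it was 1 of 17 (5.88%), against 8.4%, and with 5 kb around the gene ends 13 of 17 (76.5%), against 75.6%, so under the latter settings the set was below and level with the whole. Most of the 20 reached 30 PETs through the ZT10 library, and a gene with 30 PETs there and none listed at ZT22 is already at 4.14-fold, so these counts are a description only. Relative to the median gene, 5 of the 20 were at least 4-fold higher at ZT10, with 11.9% of all genes, and 0 at ZT22, with 26.2%. Just inside 4-fold were Serpind1 (4.28-fold) and Masp1 (4.47-fold), and just outside was Hc (3.88-fold).

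**Figure D2:**
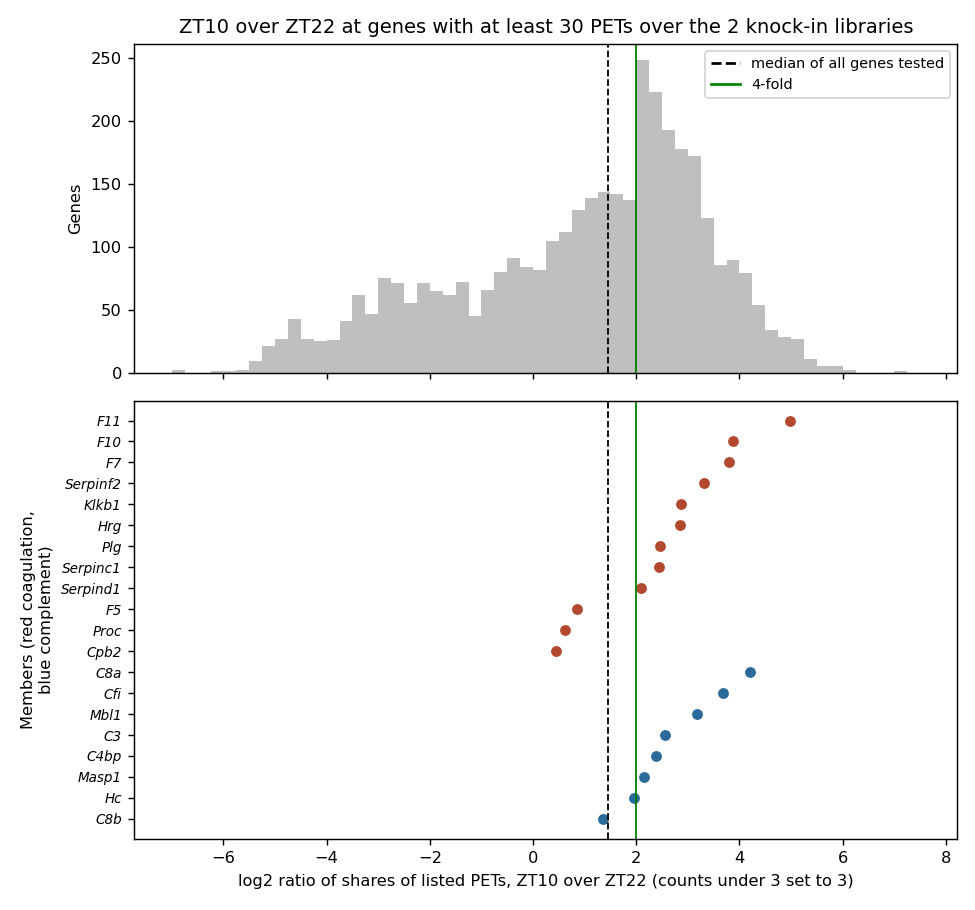
Log2 ratio of the share of listed PETs, ZT10 over ZT22, for 3721 genes with at least 30 PETs over the knock-in libraries (histogram) and for the 20 of them in the coagulation (red points) and complement (blue points) lists. The dashed line is the median of all genes at 1.46 and the green line marks 4-fold; 15 points lie to the right of the green line, and the step of the histogram there is where the count minimum of 30 PETs and the floor of 3 PETs meet.

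Among the clotting proteases and cofactors, PETs at ZT10 were concentrated on the neighbours F7, the protease that tissue factor switches on, and F10, the protease that makes thrombin. F10 (chr8:13037308-13056676) had 107 PETs at ZT10 and 3 at ZT22, a share 14.8-fold higher (95% interval 4.92 to 72.8). In the AAV libraries F10 had 0 and 0 PETs across the WT replicates and 3 and 0 across dhIDR. F7 (chr8:13025506-13035809) had 101 PETs at ZT10 against 3 at ZT22, with 0 and 0 PETs across the WT replicates and 3 and 3 across dhIDR. Both genes were thus high in the ZT10 knock-in library alone. Their windows overlap. At ZT10, 8 loops with 89 PETs ran between the windows of F7 and F10. They count for both genes, so the 2 sums are largely the same PETs. Of these 8 loops, 3 with 20 PETs had anchors in different windows of the pair, and the other 5 had an anchor in the overlap. The strongest loop at these genes, with 25 PETs, ran from chr8:13036686-13041198 at the F10 start to chr8:13058717-13062911 at its end, beside Proz, a cofactor of an inhibitor of F10. No loop joined F10 to Proz outside the overlap of their windows. F5, the cofactor of F10, had 57 PETs at ZT10 and 13 at ZT22 in a much longer gene, 0.727 and 0.166 PETs per kb. It had 6 and 5 PETs across the WT replicates and 6 and 0 across dhIDR.

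Thrombin itself did not follow F7 and F10. F2 had 14 PETs at ZT10 and 11 at ZT22, and its share was 0.527-fold that of ZT22 (0.222 to 1.28). F9, the X-linked protease of haemophilia B, had 7 and 6 PETs, and 4 and 15 PETs across the WT replicates and 4 and 13 across dhIDR. F13b, the carrier subunit of the fibrin cross-linking enzyme, had no listed loop at ZT10 and 3 PETs at ZT22. For these 3 genes the ZT10 knock-in library was not the highest of the 6.

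The contact system held the most coagulation PETs, 334 at ZT10 and 16 at ZT22 over its 4 genes, almost all of them at F11, the protease that activates F9, and at its neighbour Klkb1, plasma prekallikrein. F11 (chr8:45240659-45262055) had 229 PETs in 36 loops at ZT10 and none listed at ZT22. With 3 PETs in place of the missing count, its share of listed PETs was 31.6-fold higher at ZT10, and the counting interval starts at 25.5. Unlisted loops could sum to more than 3 PETs, so neither value is a bound on all contacts. F11 had 6 and 7 PETs across the WT replicates and 0 and 10 across dhIDR. Klkb1 (chr8:45266688-45294835) had 228 PETs in 35 loops at ZT10 and 13 at ZT22, 7.26-fold (4.16 to 13.9), with 6 and 8 PETs across the WT replicates and 4 and 15 across dhIDR. Their densities at ZT10, 7.29 and 5.98 PETs per kb, lay above those of 99.2% and 98.9% of genes.

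F11 and Klkb1 share part of their windows. At ZT10, 12 loops with 101 PETs ran between their windows and count for both genes, so the sums of F11 and Klkb1 are not separate. Of these loops, 6 with 36 PETs had anchors in different windows of the pair, against 0 at ZT22, and the other 6 had an anchor in the overlap. The strongest of these 12 ran 9.48 kb from chr8:45252147-45256666 inside F11 to chr8:45266141-45270165 at the 3′ end of Klkb1, with 33 PETs. A single merged anchor inside F11 (chr8:45250013-45256666) took part in 18 loops and 137 PETs, more loops than 99.2% of the 51933 anchors of that library. Loops from both genes also reached Cyp4v3, a fatty acid hydroxylase further along the chromosome, 15 from F11 with 81 PETs and 15 from Klkb1 with 93 PETs. Together these were 24 loops with 135 PETs, since loops from the overlap count for both genes. The other contact genes were low: Kng1 (kininogen) had 16 PETs at ZT10 and 3 at ZT22, and F12 had 4 and 0. Kng1 and its near-identical neighbour Kng2 can share reads, so the Kng1 values are uncertain.

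**Figure D3:**
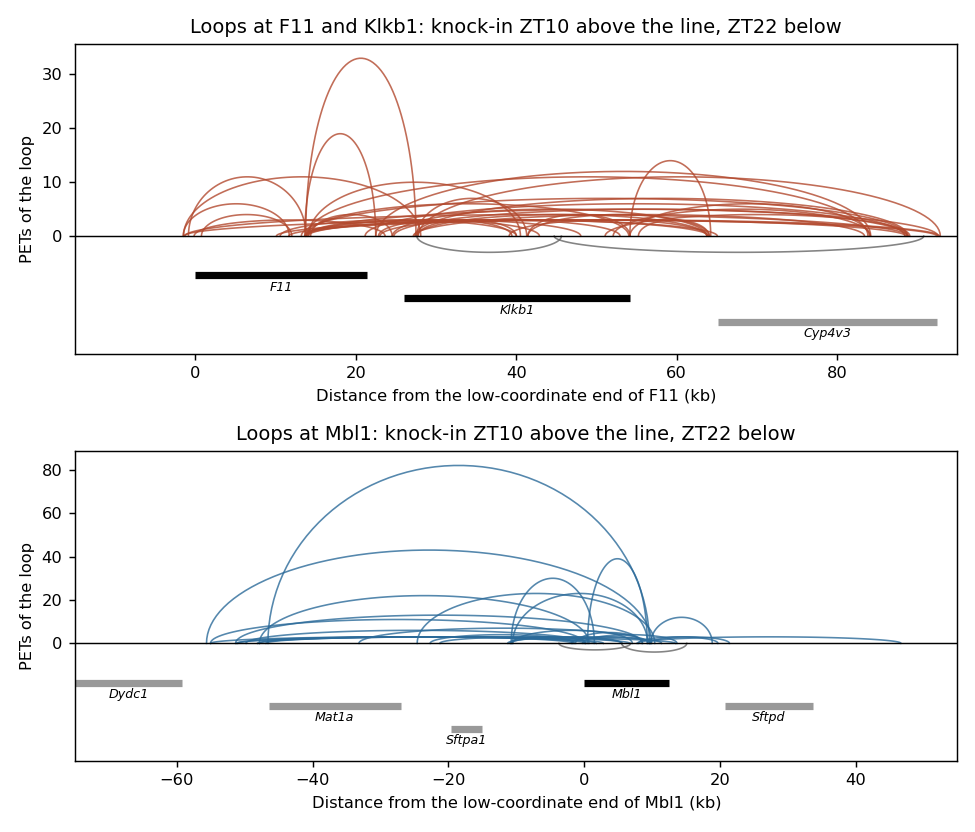
Loops at F11 and Klkb1 (upper panel) and at Mbl1 (lower panel), drawn as arcs whose height is the number of PETs, with the ZT10 knock-in library above the line and ZT22 below; the horizontal axis is distance in kb from the low-coordinate end of F11 or Mbl1. At ZT10 the highest arcs carry 33 and 82 PETs, and the few arcs below the line carry 3 to 4 PETs.

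Among the anticoagulant genes, Serpinc1 (antithrombin, chr1:160978583-161002543) had 79 PETs at ZT10 and 6 at ZT22, 5.45-fold (2.40 to 15.3), with 3 and 3 PETs across the WT replicates and 11 and 9 across dhIDR. One pair of anchors, chr1:160976973-160981941 at its start and chr1:160986940-160990734 inside the gene, gave 55 of the 79 PETs, the second strongest loop of the whole set. Serpind1 (heparin cofactor II) had 31 and 3 PETs. Proc (protein C) had 26 and 7 PETs, 1.54-fold (0.650 to 4.20), so its interval includes no difference. Pros1 (protein S, the cofactor of protein C) went the other way, with 10 PETs at ZT10 and 12 at ZT22, 0.345-fold (0.134 to 0.872).

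The fibrinolysis genes and their controls held 198 PETs at ZT10 and 14 at ZT22. Serpinf2 (the plasmin inhibitor) had 72 PETs at ZT10 and none listed at ZT22, 9.94-fold higher with 3 PETs in place of the missing count (interval from 7.88), with 0 and 4 PETs across the WT replicates and 3 and 0 across dhIDR. Hrg (histidine-rich glycoprotein) had 52 PETs at ZT10 and none listed at ZT22, 7.18-fold in the same way (interval from 5.63). Of its PETs, 34 in 3 loops joined it to Fetub, another plasma protein gene nearby. Plg (plasminogen) had 40 and 3 PETs, of which 22 lay in 1 loop within the gene. Cpb2, the carboxypeptidase that slows clot lysis, had 23 and 7 PETs, 1.36-fold (0.565 to 3.76), and Vtn (vitronectin) 11 and 4, so neither differed beyond counting error.

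The lectin pathway was the largest role group, with 545 PETs at ZT10 and 34 at ZT22. Mbl1 (chr14:41151456-41163904), which encodes the mannose-binding lectin A that starts this pathway, had 372 PETs in 30 loops at ZT10 and 17 at ZT22, 9.06-fold (5.58 to 15.7). In WT it had 6 and 0 PETs and in dhIDR 9 and 10. At 16.6 PETs per kb its density at ZT10 was the highest of the set and above that of 99.9% of genes. The strongest loop of the set, 82 PETs over 50.1 kb, joined chr14:41158695-41163449 at the 3′ end of Mbl1 to chr14:41101122-41108614 at Mat1a, the liver enzyme that makes S-adenosylmethionine. Between Mbl1 and Mat1a there were 12 loops and 172 PETs, between Mbl1 and Sftpa1 (surfactant protein A) 9 loops and 98 PETs, and between Mbl1 and Dydc1 3 loops and 57 PETs. Loops of 23 and 4 PETs at anchors in the windows of both Mat1a and Sftpa1 count for both. The merged anchor over the 3′ part of Mbl1, chr14:41157807-41163629, took part in 16 loops and 271 PETs.

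Masp1, a lectin pathway protease, had 151 PETs in 21 loops at ZT10 and 14 PETs at ZT22, 4.47-fold (2.58 to 8.37), with 16 and 7 PETs across the WT replicates and 12 and 14 across dhIDR. Its strongest loop, 38 PETs, joined chr16:23496091-23500059 inside the gene to chr16:23517255-23521066 at its high-coordinate end, close to Rtp4, a chaperone of membrane receptors. Mbl2, the second mannose-binding lectin, had 12 and 3 PETs, and Masp2 10 PETs at ZT10 and none listed at ZT22. The 2 lectins thus differed in density at ZT10, with 16.6 PETs per kb at Mbl1 and 0.715 at Mbl2.

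Among the C3 convertase components, C3, the protein on which all complement routes meet, had 85 PETs in 20 loops at ZT10 and 6 at ZT22, 5.87-fold (2.59 to 16.4), with 0 and 0 PETs across the WT replicates and 9 and 0 across dhIDR. No single loop dominated: the strongest had 10 PETs, and an anchor over its start (chr17:57227695-57231823), shared with Trip10 and Gpr108, took part in 14 loops. C2 and Cfb, neighbouring genes of the major histocompatibility region that supply the convertase proteases, had 19 and 13 PETs at ZT10 and 3 each at ZT22. C4b had 5 PETs at ZT10 and none listed at ZT22. C4b has a near-identical copy, C4a, beside it, so its value is uncertain.

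In the terminal pathway C8a stood out. C8a (chr4:104815679-104876487), a subunit of the pore, had 134 PETs in 18 loops at ZT10 and 3 at ZT22, 18.5-fold (6.20 to 90.8), with 14 and 16 PETs across the WT replicates and 3 and 6 across dhIDR. A loop of 50 PETs joined chr4:104821929-104826376 and chr4:104837206-104842309, both inside the gene. Its partner subunit gene C8b had 43 PETs at ZT10 and 7 at ZT22, and 7 loops with 30 PETs ran between them at ZT10 although their windows do not overlap. Hc, whose protein C5 starts the pore, had 75 and 8 PETs, with 9 and 6 PETs across the WT replicates and 12 and 16 across dhIDR, and C8g had 26 and 3. C9, the pore-forming unit, and C6 stayed low, with 16 and 6 PETs and 3 and 6 PETs at ZT10 and ZT22. Of the regulators, Cfi, a protease that inactivates the C3 convertases, had 93 PETs in 19 loops and 3 PETs, 12.8-fold (4.26 to 63.4), with 3 and 0 PETs across the WT replicates and 3 and 6 across dhIDR. Its cofactor C4bp had 38 PETs at ZT10 and 3 at ZT22.

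**Figure D4:**
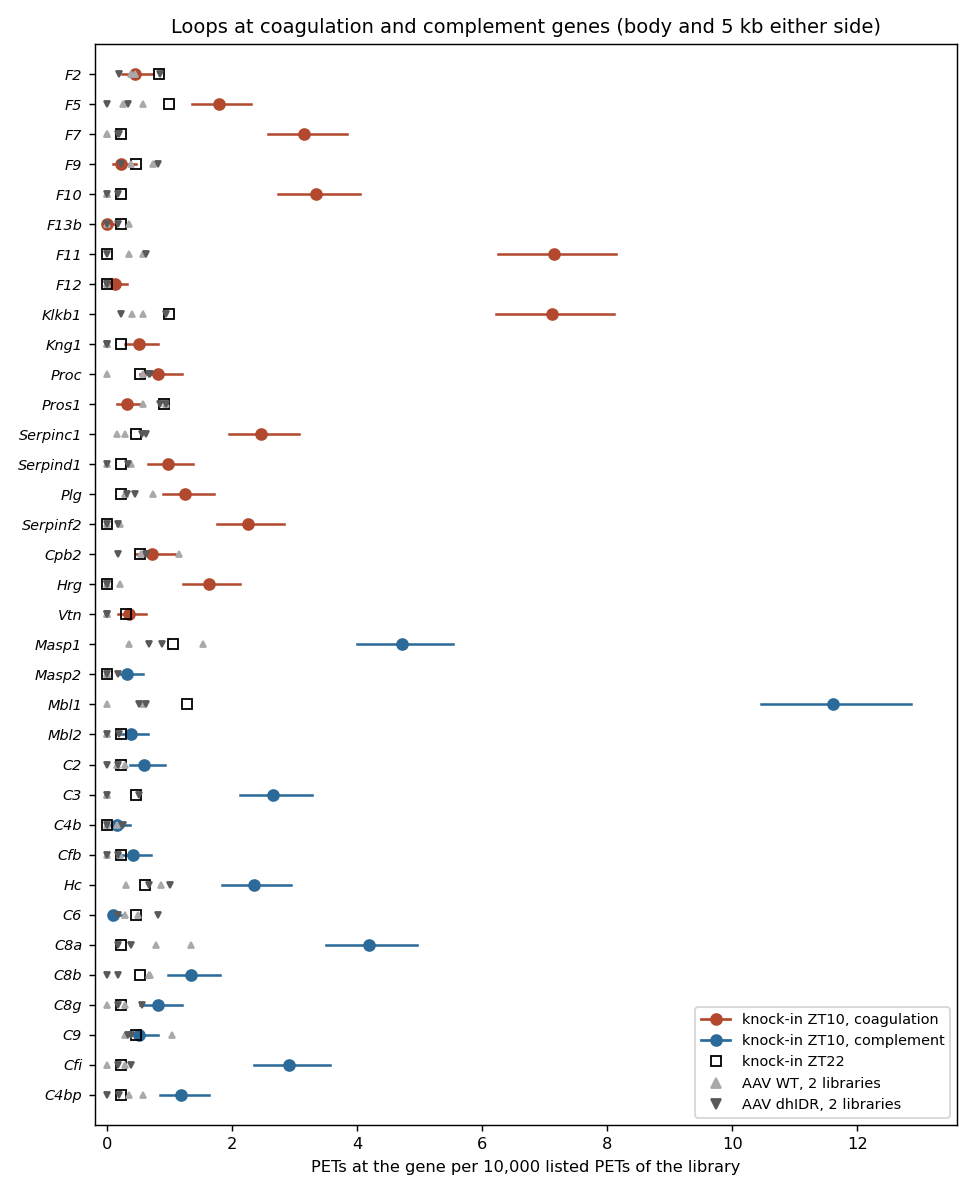
PETs at each of the 35 genes per 10000 listed PETs of the library, for the ZT10 knock-in (filled circles with 95% Poisson intervals, red coagulation, blue complement), the ZT22 knock-in (open squares), and the 2 WT and 2 dhIDR libraries (triangles). Mbl1, F11 and Klkb1 reach 11.6, 7.15 and 7.12 at ZT10, and no gene exceeds 1.54 in any of the other 5 libraries.

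The set was uneven at ZT10. The 6 genes with most PETs, Mbl1, F11, Klkb1, Masp1, C8a and F10, held 1078 PETs in 134 loops, 56.1% of the total. Loops of the set had a median span of 27.9 kb. Those under 20 kb made up 39.8% of them, against 30.5% of all loops at protein-coding genes in that library, and those of 20 to 100 kb 47.4% against 43.3%. By partner, 93 of the 304 loops (30.6%) stayed within the window of 1 gene, 16 (5.26%) joined different windows of 2 genes of the set (7 at C8a and C8b, 6 at F11 and Klkb1, 3 at F7 and F10), 162 (53.3%) reached another gene and 33 (10.9%) reached no gene. All gene loops were also classed the same way, without regard to the set. Of the loops of the set 55.3% joined different genes, and of all gene loops 22.7%, while 10.9% and 33.3% ended outside genes. Both contrasts had the same direction in every other library, with 51.9% and 28.7% joining different genes at ZT22. A loop between different genes can enter a gene set by either anchor, and one ending outside genes by only 1. These shares are thus not sampled alike and cannot tell the set from the whole. Anchors with at least 5 loops were 18.7% of 139 anchors at the set and 10.9% of all anchors. With at least 10 loops the shares were 5.04% and 3.68%, a smaller gap. Several of these anchors of the set lay at F11 and Klkb1. No pair of coagulation and complement genes was joined. All listed loops lie within a chromosome, so genes on different chromosomes could not be joined. Kng1 and Hrg lie near each other and had no loop between them.

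Most start sites of these genes lay inside an anchor at ZT10. RefSeq promoter windows on GRCm38.p6, which has the coordinates of mm10, were matched for 27 of the 35 genes. Proc, Plg, Kng1, C2, C4b, Cfb, Cfi and Masp1 had no entry. The start site lay inside an anchor of the ZT10 knock-in library at 22 of 27 genes (81.5%), 14 of 16 in coagulation and 8 of 11 in complement, against 18.0% of 17492 genes with an entry. At ZT22 the count was 0 of 27, against 2.98% of genes. Each WT replicate had 1 and the dhIDR replicates had 2 and 0, against 1.81% to 3.25% of genes. Hepatocyte markers were also above the whole at ZT10, with 5 of 8, and markers of other liver cells were not, with 1 of 15. Counting only anchors whose centre lay within 500 bp of the start, whatever their width, gave 18 of 27 (66.7%) against 17.2% of genes. Without the 4 genes of chromosome 8 it was 18 of 23 (78.3%) against 17.9%. These 2 counts were chosen after values were seen. The genes whose start lay inside no anchor were F5, F13b, C6, C8a and C9. Some anchors lay close by. One of C8a, chr4:104874177-104876124 with 3 loops and 14 of its 134 PETs, ended just short of its start at 104876398. One of F5 ended at chr1:164151729, beside its start at 164151835.

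**Figure D5:**
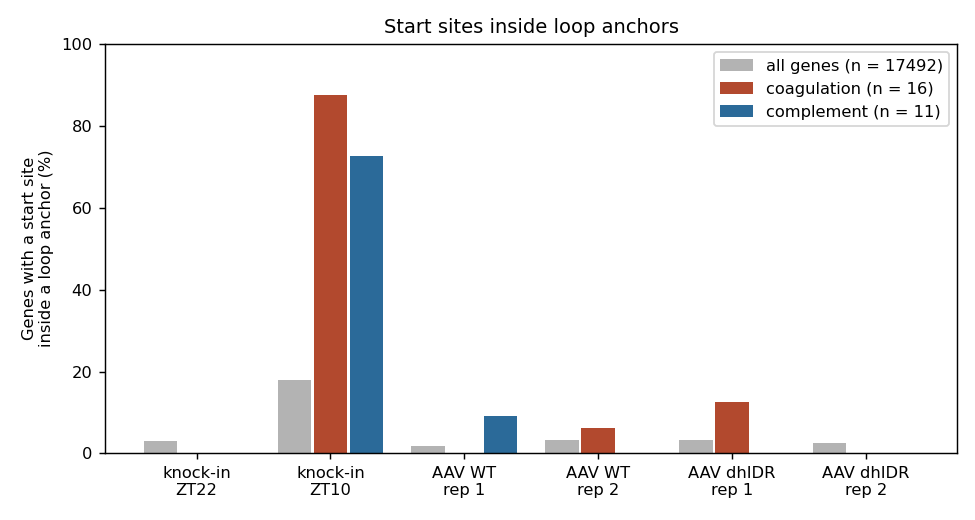
Percentage of genes whose start site lies inside a loop anchor, in each of the 6 libraries, for all genes with a promoter entry (grey, 17492), coagulation (red, 16) and complement (blue, 11). At ZT10 in the knock-in the bars are 18.0%, 87.5% and 72.7%, and elsewhere no bar exceeds 12.5%.

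The 4 promoters with most PETs in anchors over the start site at ZT10 were those of Mbl1 (115 PETs in 7 loops), F10 (62 in 4), Serpinc1 (55 in 1) and F7 (43 in 4), all with 0 at ZT22. The 250 bases before each start, from RefSeq on GRCm38.p6 and read 5′ to 3′, are shown for these 4, taken by that count. They differ in AGGTCA, the core letters of the REV-ERB binding element. Capitals mark that hexamer on the opposite strand, where it reads TGACCT.
Mbl1 (chr14:41151206-41151455, + strand): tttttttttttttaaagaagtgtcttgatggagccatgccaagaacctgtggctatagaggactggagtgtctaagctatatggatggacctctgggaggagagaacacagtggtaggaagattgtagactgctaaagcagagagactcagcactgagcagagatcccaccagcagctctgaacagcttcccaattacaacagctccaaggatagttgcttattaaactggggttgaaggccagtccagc
F10 (chr8:13037058-13037307, + strand): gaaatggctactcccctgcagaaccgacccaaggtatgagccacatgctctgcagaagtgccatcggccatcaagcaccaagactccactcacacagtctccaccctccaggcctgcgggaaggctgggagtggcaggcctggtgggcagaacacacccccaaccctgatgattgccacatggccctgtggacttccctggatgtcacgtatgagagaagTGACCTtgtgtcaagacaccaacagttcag
Serpinc1 (chr1:160978333-160978582, + strand): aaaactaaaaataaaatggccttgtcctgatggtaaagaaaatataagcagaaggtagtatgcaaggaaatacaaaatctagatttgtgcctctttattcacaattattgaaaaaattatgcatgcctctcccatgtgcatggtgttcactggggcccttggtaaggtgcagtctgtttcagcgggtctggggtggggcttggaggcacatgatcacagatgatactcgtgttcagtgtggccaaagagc
F7 (chr8:13025784-13026033, + strand): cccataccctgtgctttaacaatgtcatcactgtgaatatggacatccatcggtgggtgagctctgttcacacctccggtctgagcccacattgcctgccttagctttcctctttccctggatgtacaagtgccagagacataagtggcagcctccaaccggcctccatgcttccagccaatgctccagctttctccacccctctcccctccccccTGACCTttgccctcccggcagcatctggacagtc
The F10 and F7 promoters each hold the hexamer once, at position -30 and -34 from the start, and these letters are not in the Mbl1 and Serpinc1 windows. The full REV-ERB element (RORE) is in none of the 4 windows, and whether the hexamer alone marks a REV-ERB site was not tested.

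In windows of 250 bases before to 50 after the start, AGGTCA on either strand was found in 11 of 28 windows of the set (39.3%), against 14.7% of 21263 windows. It was in 7 of 16 coagulation and 4 of 12 complement windows, in 6 of 24 windows of the related cascade genes, 4 of 16 of markers of other liver cells and 0 of 9 of hepatocyte markers. Among windows inside a ZT10 anchor the shares were 39.1% of 23 and 13.8% of 3684. The longer TAGGTCA, which contains the hexamer, was in 1 window of the set, that of C6, and in 2.32% of all windows. The full RORE element was in 0 of the 28 and in 0.235% of all. A match is a description of letters, and binding at these letters was not measured.

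Other genes of both cascades, from lists that leave out the 35, held fewer PETs at ZT10. The 16 coagulation genes, receptors and vessel-wall genes among them, held 190 PETs at ZT10 and 65 at ZT22, and 1 of 2 with at least 30 PETs was past 4-fold. The highest were Proz with 85 and 6 PETs, Kng2 with 34 and 6, tissue factor (F3) with 24 and 3, and the thrombin receptor F2r with 17 and none listed. All 85 ZT10 PETs of Proz, the gene past 4-fold, lay in loops also counted for F7 or F10. Of the Kng2 PETs at ZT10, 13 lay in loops also counted for Kng1. The 17 other complement genes held 227 and 56 PETs, and 1 of 3 with at least 30 PETs was past 4-fold. The highest were Serping1 (C1 inhibitor) with 81 and 12, Clu (clusterin) with 45 and 10, Cd59a (a membrane inhibitor of the pore) with 33 and none listed, and C1ra with 20 and 3. C1qa, C1qb and C1qc, which macrophages make, had no listed loop in either knock-in library. Start sites lay in ZT10 anchors at 7 of 21 of these related genes with an entry (33.3%).

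Single loops of the set rarely recurred between libraries. Of the 304 ZT10 knock-in loops of the set, 3 were matched at ZT22, 2 and 0 across WT replicates, and 4 and 2 across dhIDR replicates, where both anchors had to overlap by at least 1 bp. No loop of the set was shared by the WT replicates, and none by the dhIDR replicates. Recurrence over all loops was not counted, so whether the set differs from the whole in this is not known. The AAV loops that matched the ZT10 knock-in lay at leading genes. In WT replicate 1 they were a loop of 6 PETs within Mbl1 and one of 3 PETs from F11. In dhIDR replicate 1 they lay within Serpinc1 and C8a, between the start sites of F7 and F10, and at Mbl1, each with 3 PETs, and in dhIDR replicate 2 both lay at Mbl1, with 4 and 3 PETs. At ZT22 the 3 matches lay at Serpinc1, Kng1 and Hc. The strongest AAV loops had no match: Hc to Ncs1 over 3757 kb with 12 PETs and a loop of 13.5 kb between anchors at Klkb1 with 10 PETs, both in dhIDR replicate 2.

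WT against dhIDR asks whether the deleted stretch of the receptor alters its contacts. The set held 11.1 ± 1.96 PETs per 10000 listed in WT and 9.96 ± 1.24 in dhIDR (SD, n = 2 each). The difference of 1.14 was smaller than the spread between WT replicates (exact two-sided permutation p = 0.667, where 2 against 2 libraries cannot go below 0.333). Coagulation genes had 5.36 ± 0.161 and 5.22 ± 0.0120, with both WT values above both dhIDR values in a range of 5.21 to 5.47 (exact permutation p = 0.333). Complement genes had 5.73 ± 1.80 and 4.73 ± 1.23 (exact permutation p = 0.667). The log2 ratio of coagulation to complement was -0.06 ± 0.41 in WT and 0.16 ± 0.37 in dhIDR, a difference of -0.23 (exact permutation p = 0.667). It turned to 0.07 without WT replicate 1 and to 0.04 without dhIDR replicate 1. The difference in the share of the set changed sign to -0.251 without WT replicate 1.

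By edgeR's quasi-likelihood test with Benjamini-Hochberg adjustment, 0 of 8 genes of the set with enough PETs passed at 0.05, and 1 of 4608 genes tested did (0.0217%). None of the 8 had an unadjusted p under 0.05, against 124 of all genes, and DESeq2 called 0 of the 8. C8a came nearest, with 14 and 16 PETs across the WT replicates and 3 and 6 across dhIDR, so all WT values lay above all dhIDR values. Its log2 fold change, WT over dhIDR, was 1.94 (SE 0.994, edgeR adjusted p = 0.9998). C8b had 7 and 14 against 3 and 0 PETs (log2 2.90, SE 2.23). Cpb2 had 12 and 11 against 3 and 10 PETs (log2 1.07, SE 1.12). Proc had 6 and 0 against 12 and 11 PETs, -1.35 on the log2 scale (SE 1.84). The log2 values of Hc (-0.58), Masp1 (0.21), F9 (0.18) and Pros1 (-0.17) were smaller, and their shares of listed PETs overlapped between the constructs.

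Shares did not overlap between the constructs at 5 of 22 genes of the set with at least 10 PETs over the 4 libraries. They were higher in WT at C8a, C8b and C4bp, with 14.8% of all such genes, and higher in dhIDR at Proc and Serpinc1, with 17.9%. The counts, 3 and 2 of 22, were at or under those percentages. Pros1 had the most AAV PETs, with 6 and 19 PETs across the WT replicates and 15 and 15 across dhIDR, followed by Masp1, Hc and C8a. Mbl1, F11 and Klkb1, which led at ZT10 in the knock-in, had 25, 23 and 33 PETs over the 4 AAV libraries. On simulated counts with the spread of these libraries, the test recovered 0 of 102 changes of 4-fold and 46 of 145 changes of 8-fold, so at this depth a change of 4-fold at single genes was not detectable.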

How the data were processed

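In-situ ChIA-PET loops of 6 anti-HA mouse liver libraries were used, grouped by the sample titles. Per the submitters' processing notes the build was mm10; the aligner is, like the loop caller, not given in the sources used here. The deposited files give raw counts of PETs per loop, one file per library, not normalized and not pooled, with a lowest count of 3. From them, loops on nuclear chromosomes were assigned to RefSeq gene windows (body and 5 kb either side). The coordinates are printed as the files give them. Of 102 entries in the gene lists, 1 (C4a) was not protein-coding in the annotation and was left out. The members and lists were chosen with earlier results of these data known.

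Knock-in folds are ratios of shares of listed PETs with conditional Clopper-Pearson intervals at 95%; unlisted counts entered fold counts as 3 PETs. WT and dhIDR were compared over all genes with edgeR 4.0.16 (quasi-likelihood test, total listed PETs with TMM factors, filterByExpr, adjusted p 0.05), checked on simulated data, and DESeq2 1.42.0 as an alternative. Shares per library were compared by exact permutation. Genes described in depth were, by rule, the 6 with most ZT10 PETs in each list, up to 3 strongest ZT10 loops per list, and those tested between constructs; other members are given by their counts. The 4 related genes with most ZT10 PETs in each list, and the 4 promoters with most PETs at the start, were also taken by rule. Partner genes, recurring loops and merged anchors were chosen after values were seen. Alternatives covered window, loop strength, span, anchor width, scale, count filter and left-out replicates. Listed PETs on nuclear chromosomes ran from 104161 to 320427 per library.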

Additional observations from a re-analysis of the deposited data

How the results depend on the processing

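The ZT10 over ZT22 fold of the set, 4.45, was 3.14 with windows of 25 kb, 6.53 with 5 kb around the gene ends, 3.04 with a minimum anchor width of 700 bp, and 1.62 with the median scale; the other 4 alternatives stayed within its interval. The count of genes past 4-fold, 15, was 6 with loops of at least 4 PETs, 1 with wide anchors and 5 with the median scale, and moved by less than 1.5 times under the other 6. As shares it ranged more: 76.5% with gene ends against 75.6% of all genes, 13 of 26 against 30.7% with 25 kb, and 48.4% against 18.2% with at least 10 PETs over both libraries. Coagulation over complement at ZT10, 0.828, turned to 1.28 without Mbl1 and kept its direction under 6 others. The difference between WT and dhIDR in the share of the set, 1.14, turned to -0.348 with gene ends, -0.0107 with spans up to 2 Mb and -14.4 with wide anchors; leaving out 1 library gave -0.251 to 2.53, the lowest without WT replicate 1. The log2 coagulation to complement difference, -0.23, turned to 0.65 with gene ends and 1.06 with wide anchors; leaving out 1 library gave -0.52 to 0.068, above 0 without WT replicate 1 or dhIDR replicate 1 (0.038). The cause of these changes was not tested. Genes called between constructs stayed at 0 under all 14 alternatives that gave a value; with wide anchors no gene of the set could be tested. With the replicate number as a block, 0 genes of the set and 1 of 4608 were called, 88 at an unadjusted p under 0.05; same-numbered libraries deviated with a correlation of 0.0103, so they share a number only. Start sites inside ZT10 anchors numbered 22, and 18, 22 and 18 under 3 alternatives added after the data were seen (anchor centre within 500 bp, at least 4 PETs, no chromosome 8). Listing from 3 PETs limits depth: weaker loops are not seen.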
